A study of Homo sapiens with 73 samples.

Results

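The genes described here are 35 members of the NF-kB pathway and of its inflammatory output, taken by symbol from the 36233 genes of the deposited table. They comprise 9 chemokines, 8 cytokines and growth factors, the adhesion molecules ICAM1 and VCAM1, the 5 NF-kB subunits, inhibitors of the pathway and other classical targets. The rule uses symbols alone, although the list was drawn up with earlier results of these data known. A mean of at least 10 over all 73 columns was reached by 17 of the 35, and these entered the tests; the other 18 are described by their values.

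The cells were CHLA-9, an established line grown from an Ewing sarcoma, with the fusion gene EWSR1-FLI1. From the untreated line, 10 parallel cultures were set up, called lineages here. Lineages R1 to R7 alternated between VDC (vincristine, doxorubicin and cyclophosphamide) at odd time points and EC (etoposide and cyclophosphamide) at even ones, through 5 cycles, and lineages R8 to R10 received the solvent DMSO under the same time point names. RNA-seq gave 49 treated libraries, 23 DMSO libraries and 1 library of the untreated parental line. Each exposure used the concentration with 70% effect for 5 days, and RNA was taken only after regrowth without drug to 80 to 90% confluency. The values therefore describe recovered cultures of a single cell line, without tumour stroma or immune cells. Time point 2 has DMSO libraries only, time point 3 treated libraries only, and time point 7 a single DMSO library, of R8.

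NF-kB is a family of dimeric transcription factors assembled from RELA, RELB, REL and the proteins made from NFKB1 and NFKB2. In resting cells IkB proteins such as NFKBIA hold the dimers in the cytoplasm, and signals from TNF, interleukin-1 or DNA damage lead to IkB destruction, nuclear entry and transcription of cytokines, adhesion molecules and the pathway's own inhibitors. The canonical branch works through RELA and NFKB1, and the slower non-canonical branch through RELB and processed NFKB2. Secreted members such as CXCL8 and IL6 are also part of the secretory programme of senescent and drug-exposed tumour cells.

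Many of the members hold the kB motif in their promoters. They were chosen as NF-kB genes and targets, so this is tied to the choice and is not a result of these data. In RefSeq promoters of build GRCh38.p14, each 300 bases long with 250 bases before the transcript start, the kB motif was matched in 18 of the 41 promoters of the 28 members present in the table, and in 2075 of all 35116 promoters, 5.91%. Counted by gene, where 1 matching promoter is enough, it was found for 17 of the 28 members, 60.7%, and for 7.09% of all 27305 genes. By gene, the TATA box TATAAA was matched in 8 of the 28 members, 28.6%, against 14% of all genes, the AP-1 motif TGANTCA in 3, 10.7% against 9.37%, and the octamer ATTTGCAT in 1, 3.57% against 2.19%. Both strands were searched, and a match of these letters is a description of the sequence, not a measured binding site. The stretches below show the sites of genes that stayed under 10 in every library beside those of expressed genes. Each is 30 bases long, on the strand of the gene, with the kB match in capitals.
CXCL1: ctggaactccGGGAATTTCCCtggcccggg
CXCL2: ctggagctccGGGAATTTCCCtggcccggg
CXCL5: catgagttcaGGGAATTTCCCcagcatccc
NFKB1: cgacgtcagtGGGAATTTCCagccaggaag
NFKB2: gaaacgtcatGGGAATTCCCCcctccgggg
NFKBIA: tgactggcttGGAAATTCCCcgagcctgac
IL32: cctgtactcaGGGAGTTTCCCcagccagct
CD83: gctgcccgccGGGGAATCCCCCgggctggc
CXCL8: gtggaatttcctctgacataatgaaaagat
The CXCL1 stretch lies at chr4:73869304-73869333 on the plus strand, the NFKB1 stretch at chr4:102501300-102501329 on the plus strand and the NFKBIA stretch at chr14:35404811-35404840 on the minus strand. CXCL8, at chr4:73740476-73740505 on the plus strand, is shown without capitals because its window holds no match to the motif as searched. The window does hold tggaatttcc, which differs only in its first letter from the gggaatttcc matched in CXCL1. A kB site of looser form is therefore not excluded by this search. Outside the printed stretch, the CXCL8 promoter holds the AP-1 motif from position -137 to -131 before the start and a TATA box from -31 to -26. The letters gggaatttcc stand in the matches of CXCL1, CXCL2 and CXCL5, none of which reached 10 in any library, and in that of NFKB1, which did not fall below 319.9 in any.

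The table holds quantile-normalized counts, from which sequencing depth cannot be read, and a gene without reads takes a small tie value (0.0248 in the parental library) in place of 0. The labelled cell type was checked on 12 Ewing sarcoma markers. Of these, 11 were expressed, with a summed value of 51225 to 90708 in treated and 57808 to 96470 in DMSO libraries, while CD99 did not exceed 2.31 in any library. Of 12 myeloid markers, 7 never reached 10, among them LYZ, CD68, TYROBP and CD163, and the sum was 11.9 to 48.2 in treated and 18.3 to 212 in DMSO libraries. Of 10 lymphocyte markers, CD3D, CD3E, CD2, MS4A1 and GNLY never reached 10. Fibroblast genes such as COL1A1 were expressed in all libraries. Libraries that stand apart are R9 at time points 8 and 9 and R10 at 9 and 10 among the DMSO cultures, and R1 at 9 and R2 at 10 among the treated ones. In each but R10 at time point 9, between 11.8% and 17.3% of the 14565 tested genes lay above every one of the 48 other libraries of time points 4 to 10, and results that rest on these 6 libraries are given with and without them.

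Of the ELR+ chemokines, which recruit neutrophils through CXCR2, CXCL1, CXCL2, CXCL3 and CXCL5 did not reach 10 in any library. They had medians of 0.0104, 0.0144, 0.0132 and 0.0118 over all libraries and highest values of 2.46, 5.33, 1.92 and 0.823. CXCL1, CXCL2 and CXCL3 are near-identical paralogs whose reads the counting could have split. CCL20, a CCR6 ligand, CCL5, IL6 and CSF2 did not reach 10 either, with highest values of 2.95, 7.38, 5.08 and 0.907. Of the 35 members, 8 were thus below 10 in every treated, DMSO and parental library.

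The other 10 members under the test minimum reached 10 in 1 to 15 libraries each. IL11 did so in 12, LIF in 11, IL1B in 6, PTGS2 in 5, CXCL10 in 3 and IL1A in 2. IL1A, an interleukin-1 alarmin, peaked at 27.3, IL1B at 25.8, CXCL10, a CXCR3 ligand, at 40.4, LIF, a cytokine of the IL-6 family, at 41.4, and PTGS2, the inducible cyclooxygenase, at 30.9, and all 5 of these peaks were in R9 at time point 9. The second highest value of PTGS2 was 26.2, in R2 at time point 10. IL11, another cytokine of the IL-6 family, was highest in that same treated library at 87.2, with 61.2 in R9 at time point 8. It reached 38.8 among the DMSO libraries of time point 9 and 28.0 among treated libraries other than the 6 late ones. R1 at time point 9 held 27.0. CCL2, which attracts monocytes, had a different spread: it reached 10 in 15 libraries, 12 of them treated, with 39.5 in R4 at time point 5 and a parental value of 1.30. BIRC3, an apoptosis inhibitor and ubiquitin ligase of TNF receptor signalling, reached 10 in 15 libraries and was highest in R4 at time point 9, at 63.5. TNFAIP2 reached 10 in 3 libraries with a highest value of 15.1, and TRAF1, a TNF receptor adaptor, in 1, at 13.4.

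The pathway's machinery was expressed in every library. Per kilobase of exon, the median level in treated libraries of time points 4 to 10 was highest for NFKBIA at 258, IER3 at 213, RELA at 189 and TNFAIP3 at 165, followed by TNIP1 at 150, NFKB1 at 92.9 and NFKB2 at 88.6. RELB and REL stood at 52.2 and 51.6, and ICAM1 and VCAM1 at 29.7 and 6.93. Exon lengths were those of GENCODE release 29. SOD2 has a pair of gene records there, so no level per length is given for it.

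The first change was shared by both arms and fell between the early and the later time points. ICAM1, the ligand of leukocyte integrins, had a value of 7.92 in the parental library. At time point 1 it was 16.2 in R1, 14.6 in R2, 16.5 in R3, 11.9 in R4, 12.7 in R6 and 3.91 in R7, and in the DMSO lineages R8 had 15.8, R9 had 5.22 and R10 had 5.72. The arms overlapped at this low level. At time point 3 the 6 treated libraries ran from 22.7 to 62.9 with a median of 47.0, and at time points 4 to 10 the 37 treated libraries had a median of 110, from 7.86 to 343. The 17 DMSO libraries of time points 4 to 10 had a median of 150, from 11.7 to 1701, against a median of 7.28 at time points 1 and 2. Without the 6 late libraries the later medians were 120 in treated and 79.1 in DMSO libraries. No treated library of time point 3 overlapped with those of time point 1, and the share of all genes with such a separation was not computed. In these bulk samples, fewer cells that express a gene and less RNA per cell cannot be told apart.

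IER3, an immediate early survival gene, rose in the same interval. Its 6 treated libraries of time point 1 ran from 52.9 to 72.4 and its 6 DMSO libraries of time points 1 and 2 from 29.9 to 86.3. At time points 4 to 10 the treated median was 289, from 45.5 to 2259, and the DMSO median was 289 as well, from 103 to 761. Without the 6 late libraries these medians were 279 in treated and 228 in DMSO libraries. In the DMSO lineages the early and later ranges did not overlap, and in the treated ones they overlapped through R1 at time point 4, at 45.5. How many of all genes separate in this way was not computed, and libraries of 1 lineage are repeated samples. The parental library, at 101, lay above all 12 early libraries of time points 1 and 2. CSF1, the growth factor of macrophages, went from a treated median of 63.0 at time point 1 to 186 at time points 4 to 10, and from a DMSO median of 39.5 at time points 1 and 2 to 122. Without the 6 late libraries the later medians were 163 in treated and 185 in DMSO libraries. The parental library held 111, above the early DMSO libraries, at most 79.0, and within the treated range of time point 1, 46.3 to 169. R9 at time point 5, at 23.8, was the lowest CSF1 value of all libraries. NFKBIA went from a median of 386 to 612 in treated and from 369 to 633 in DMSO libraries, but the parental library, at 989, lay above all 12 early libraries of time points 1 and 2.

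**Figure D1:**
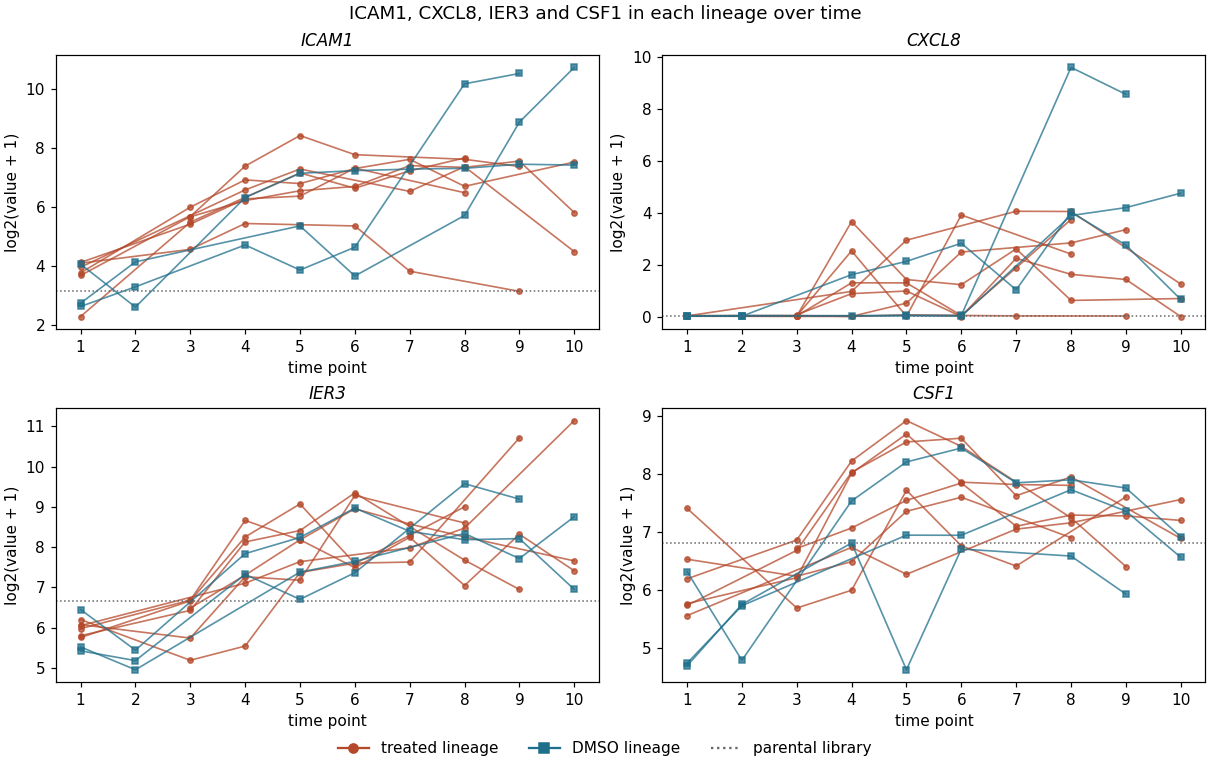
Values of ICAM1, CXCL8, IER3 and CSF1 as log2(value + 1) against time point (1 to 10), 1 line per lineage, treated lineages in red circles and DMSO lineages in blue squares, with the parental library as a dotted line. ICAM1, IER3 and CSF1 lie higher from time point 4 on in both arms, and R9 and R10 leave the others for ICAM1 from time point 8 or 9.

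Tested as slopes, the change in log2(value + 1) per time point fitted in each lineage, 7 of the 17 tested members rose in the treated lineages and none fell (limma, adjusted p under 0.05 over all genes). Over all genes 16.3% rose and 22.8% fell in this arm, and the median slope was 0.05 for the members and -0.01 for all genes. The steepest of the called slopes were those of secreted and surface members and of IER3. IL32, a cytokine that induces TNF and IL6, rose by 0.37 ± 0.07 (SE, adjusted p = 0.00246), IER3 by 0.35 ± 0.06 (adjusted p = 0.0019), ICAM1 by 0.27 ± 0.08 (adjusted p = 0.0251) and CSF1 by 0.13 ± 0.03 (adjusted p = 0.00748) per time point. The IL32 slope was positive in 7 of 7 treated lineages, from 0.02 in R5 to 0.68 in R3, and so were those of IER3 and CSF1, while ICAM1 rose in 6 and had a slope of -0.13 in R1. IL32 values were low, from 0.0132 to 3.02 in treated libraries of time point 1 and from 1.13 to 32.6 at time points 4 to 10. The parental library held its tie value of 0.0248 for IL32. Among the machinery, RELA, the main activating subunit, rose by 0.05 ± 0.01 (adjusted p = 0.00198), NFKB1 by 0.05 ± 0.01 (adjusted p = 0.00349) and TNIP1, a partner of the inhibitor A20, by 0.06 ± 0.01 (adjusted p = 0.00341), each in 7 of 7 lineages.

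In the DMSO lineages 7 members also passed with a rising slope and none with a falling one, where 6.11% of all genes rose and 6.14% fell. Among the 7 was CXCL8, which entered the tests only through late R9 libraries that are part of this slope, so its slope is given as a description and 6 members remain. The median slope was 0.08 for the members and -0.01 for all genes. The CXCL8 slope was 0.67 ± 0.16 (SE), and 0.22 without the 4 late DMSO libraries. ICAM1 rose by 0.73 ± 0.13 (SE, adjusted p = 0.0105), IER3 by 0.37 ± 0.09 (adjusted p = 0.0284) and CSF1 by 0.19 ± 0.05 (adjusted p = 0.0284). NFKB1, NFKB2 and TNIP1 rose by 0.08, 0.09 and 0.06 (adjusted p = 0.0149, 0.0423 and 0.0389), all with positive slopes in 3 of 3 lineages. ICAM1, IER3, CSF1, NFKB1 and TNIP1 were thus called in both arms, IL32 and RELA in the treated arm, and NFKB2 in the DMSO arm. The NFKB2 slope was -0.04 without the 4 late DMSO libraries. No DMSO slope of a member was called without R9, where ICAM1 had 0.60 and NFKB2 0.05. None was called without R10 either, where ICAM1 had 0.74 and NFKB1 0.09, nor without time point 1, where ICAM1 had 0.80 and NFKB2 0.13.

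The treated slopes of ICAM1, CSF1, NFKB1 and TNIP1 lost their call without the early time points. Without time point 1, IL32 rose by 0.40 (adjusted p = 0.0194), RELA by 0.07 (adjusted p = 0.0343) and IER3 by 0.36 (adjusted p = 0.0484), and those 4 did not pass. Over time points 4 to 10 alone, a choice made after seeing the data, none of the 17 was called in the treated lineages, with a slope of -0.06 ± 0.14 (SE) for ICAM1. The slopes of IL32, IER3 and RELA over this span were 0.34 ± 0.10 (SE, adjusted p = 0.0991), 0.23 ± 0.13 (adjusted p = 0.327) and 0.06 ± 0.02 (adjusted p = 0.0861). In the DMSO lineages ICAM1 and NFKB2 were called over this span, at 0.93 ± 0.21 (SE, adjusted p = 0.0342) and 0.25 ± 0.06 (adjusted p = 0.035). The IL32 slope there, 0.71 ± 0.15 (SE), is given as a description. IL32 had a mean of 10.4 over all columns, with 57.8 in R9 at time point 9 and 55.5 in R10 at time point 10. It passed the test minimum only through these late DMSO libraries, which are part of this slope. The shares of all genes called in these alternatives were not computed.

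Other groups of genes moved with the slopes, and their part in the result was not tested. All 13 mitochondrially encoded genes, included as a sign of RNA quality, fell in both arms, with a median slope of -0.14 in treated and -0.22 in DMSO lineages. Of 23 tested immediate early genes, which respond to handling, 11 rose and none fell in treated lineages, beside 16.3% and 22.8% of all genes, and 3 rose and none fell in DMSO lineages, beside 6.11% and 6.14%, with NR4A2 rising by 0.43 and 0.57 per time point. Myeloid markers stayed at the low levels given above, with none of the 12 reaching the test minimum.

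**Figure D2:**
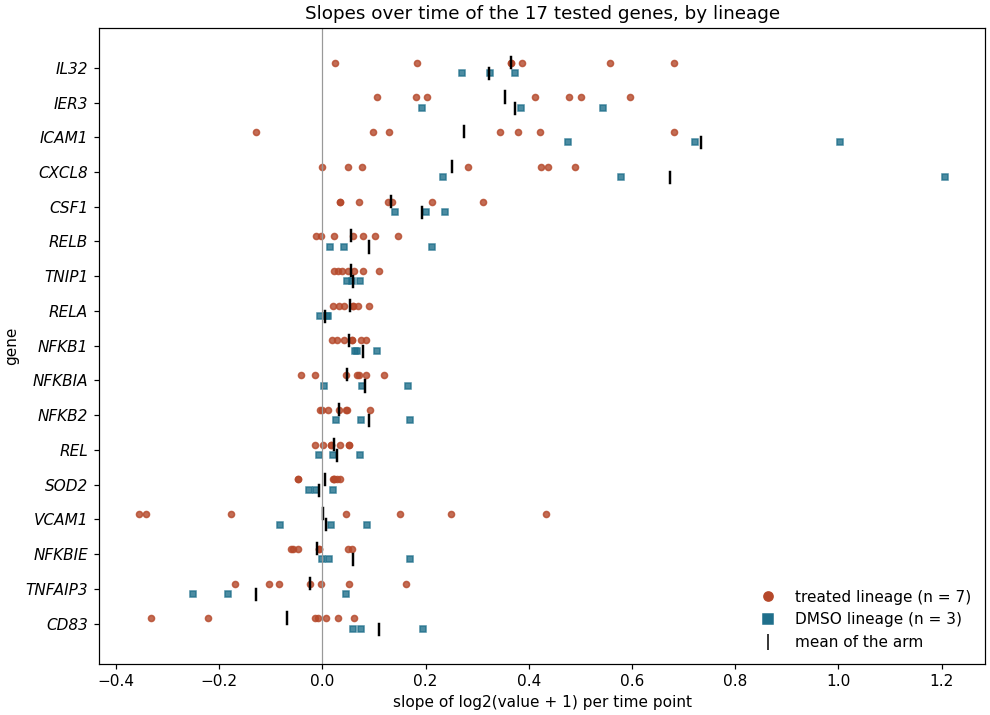
Slopes of log2(value + 1) per time point for the 17 tested genes, with 1 red circle per treated lineage (n = 7), 1 blue square per DMSO lineage (n = 3) and a black bar at each arm's mean. For RELA every treated slope lies above every DMSO slope, and for ICAM1 and CXCL8 the steepest slope belongs to the DMSO lineage R9.

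Whether the arms changed at different rates was asked with the slope difference. No member was called (limma, adjusted p under 0.05), as for 0% of all genes. At an unadjusted p under 0.05 there were 4 members, ICAM1, RELA, CXCL8 and CD83, beside 9.43% of all genes. ICAM1 rose 0.46 ± 0.15 (SE) less per time point in treated than in DMSO lineages, a difference of -0.46 (adjusted p = 0.493), and RELA 0.05 ± 0.02 more (adjusted p = 0.493). RELA was the 1 member of 17 whose treated slopes, from 0.02 to 0.09, all lay above the DMSO slopes, from -0.005 to 0.01. Such a separation held for 0.851% of all genes. The CXCL8 difference, a description for the reason above, was -0.42 ± 0.19 (SE) and turned to 0.03 without the 4 late DMSO libraries.

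The NF-kB subunits had narrower ranges than the secreted members. NFKB1 had a median of 433 at time point 1 and 581 at time points 4 to 10 in treated libraries, and of 389 and 603 in DMSO libraries, with the parental library at 617. In the DMSO lineages its early libraries, at most 459, did not overlap with the later ones, at least 498, and the share of all genes that separate so was not computed. RELA had a treated median of 894 at time point 1, 848 at time point 3 and 1033 at time points 4 to 10, and the highest value, 1551, was in R4 at time point 9. REL, the subunit best known from lymphocytes, ran from 452 to 893 over all libraries, and RELB from 57.6 to 345. NFKB2 ran from 231 to 571 in the 48 libraries of time points 4 to 10 other than the 6 late ones.

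**Figure D3:**
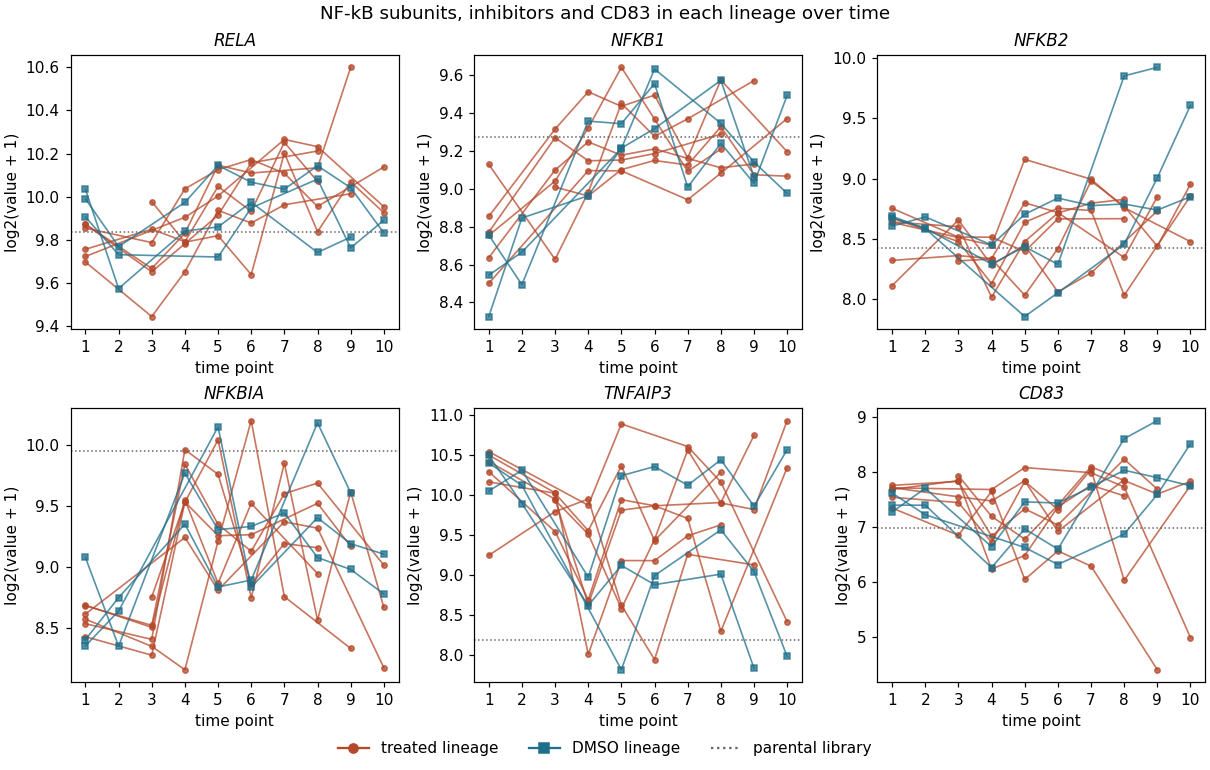
Values of RELA, NFKB1, NFKB2, NFKBIA, TNFAIP3 and CD83 as log2(value + 1) against time point, 1 line per lineage, treated in red circles, DMSO in blue squares, parental library dotted. Vertical axes differ between panels. NFKBIA lies higher from time point 4 on in most libraries, NFKB2 and CD83 are high in the late R9 and R10 libraries, and CD83 is low in the last libraries of R1 and R2.

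The feedback inhibitors did not move together. NFKBIA was higher after the early time points in both arms, whereas TNFAIP3, which encodes the deubiquitinating enzyme A20, had a higher median early: 1310 at time point 1 in treated libraries, with R1 lowest at 607, and 1190 at time points 1 and 2 in DMSO libraries. At time point 4 the 7 treated libraries ran from 257 to 988 and the DMSO libraries R8 and R9 held 502 and 393. The parental library, at 292, lay below all early libraries of the lineages. Across 72 libraries TNFAIP3 varied against NFKB1 and NFKBIA (Spearman rho = -0.43 and -0.41), while over all 136 pairs of tested members the median rho was 0.28 and 108 were positive. CSF1 and IER3 were the most alike (0.71), followed by CXCL8 and ICAM1 (0.71). Libraries of 1 lineage are repeated samples, so these coefficients are descriptive. The slopes of TNFAIP3 were -0.02 in treated and -0.13 in DMSO lineages, neither called, and NFKBIE, an IkB protein that restrains REL-containing dimers, had -0.01 and 0.06, neither called.

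The highest ICAM1 and CXCL8 values of the series were in late DMSO libraries of R9 and R10. In R9, ICAM1 was 24.0 at time point 6 and 1156 and 1475 at time points 8 and 9, and CXCL8, the neutrophil chemokine IL-8, went from 0.0309 to 768 and 374. In R10, ICAM1 was 51.6 at time point 8, 470 at 9 and 1701 at 10, and CXCL8 was 13.8, 17.3 and 25.9 at the same time points. The third DMSO lineage, R8, held 158, 174 and 171 for ICAM1 and 15.1, 5.73 and 0.58 for CXCL8 at time points 8, 9 and 10. No treated library exceeded 343 for ICAM1 or 15.6 for CXCL8. Values above these limits were thus found only in R9 and R10 among all libraries. CXCL8 had a mean of 18.7 over all columns and of 3.14 without R9 at time points 8 and 9, so it passed the test minimum only through them.

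The non-canonical subunits and CD83 were also high in the late R9 libraries, and NFKB2 and CD83 in R10 at time point 10. NFKB2 was 924 and 970 in R9 at time points 8 and 9 and 780 in R10 at time point 10, RELB was 332 and 345 in R9, and NFKBIE was 209 and 276 there. CD83, a surface marker of activated antigen-presenting cells, was 389 and 489 in R9 and 365 in R10 at time point 10. In R10, RELB was 101 and 177 at time points 9 and 10, and NFKB2 and CD83 were 514 and 192 at time point 9, all within the range of the 48 others. RELA, at 855 to 949 in the 4 libraries, stayed within the range of the 48 others. VCAM1, the ligand of integrin alpha-4, went the other way, with 8.96 in R9 at time point 9 and 6.11 and 4.32 in R10 at time points 9 and 10, against a lowest value of 10.5 in the 48 others. TNFAIP3 was 228 in R9 at time point 9 and 252 in R10 at time point 10, among the lowest values, with 225 in R10 at time point 5 lower still.

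Above all 48 other libraries of time points 4 to 10, the 6 late ones left out, stood 7 of 17 members in R9 at each of its late time points, 2 in R10 at time point 9 and 5 at time point 10, beside 12.7%, 17.3%, 4.52% and 12.6% of all tested genes. CXCL8 was among them in each of these libraries, and IL32 in R9 at time point 9 and R10 at time point 10. Both were tested only through late DMSO libraries. Markers of other lineages moved in these libraries too. The summed lymphocyte markers were 801 and 1257 in R9, mostly CD79A, and the summed epithelial markers 1043 and 1432, mostly KRT18 and KRT8. Myeloid markers summed to 151 and 212 there, mostly ITGAM, which reached 142 while LYZ, CD68 and TYROBP did not exceed 0.838. Their part in the result was not tested.

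**Figure D4:**
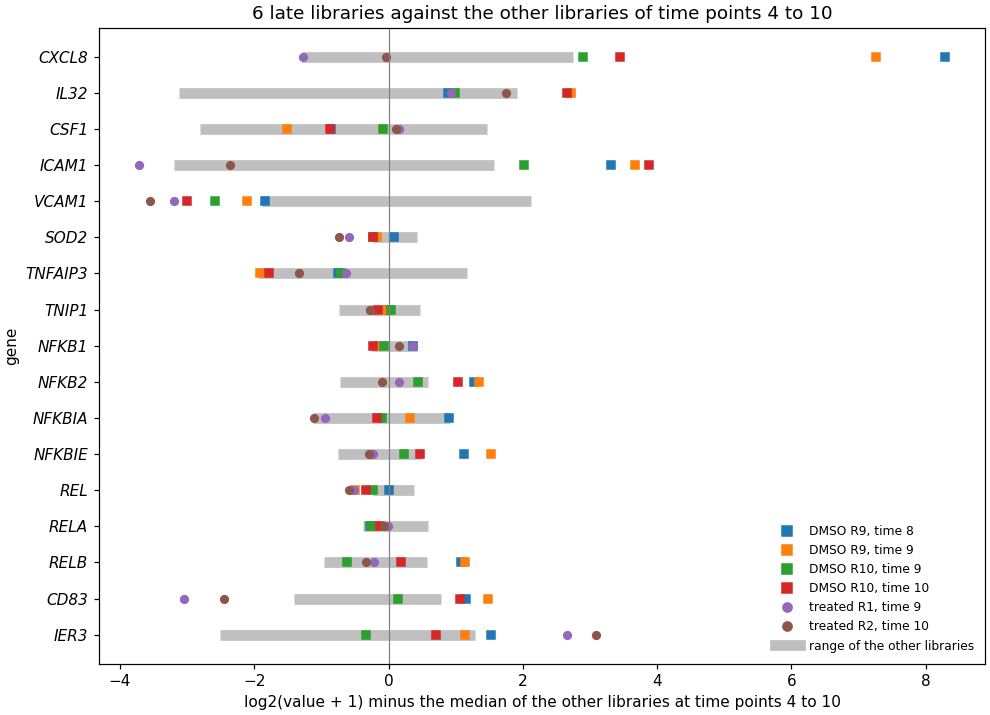
Difference of log2(value + 1) from the median of the 48 other libraries of time points 4 to 10, for 17 genes in 4 late DMSO libraries (squares) and 2 late treated libraries (circles), with the range of the 48 others as a grey bar. ICAM1, CXCL8 and NFKB2 lie to the right in DMSO lineages R9 and R10, and IER3 to the right with CD83, VCAM1 and SOD2 to the left in treated lineages R1 and R2.

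The last libraries of the treated lineages R1 and R2 had another pattern. IER3 was 197 in R1 at time point 7 and 1678 at time point 9, and 354 in R2 at time point 8 and 2259 at time point 10, the highest values of the series. ICAM1 was 7.86 in R1 at time point 9, at the parental level, and 21.5 in R2 at time point 10. CD83 was 20.2 and 30.8, VCAM1 3.65 and 2.66, and SOD2, the mitochondrial superoxide dismutase that is a classical NF-kB target, 1109 and 998, each below all 48 others. CXCL8 was 0.0159 and 1.38. High IER3 was therefore accompanied by high ICAM1 in R9 and by low ICAM1 in R1 and R2. Summed fibroblast genes were 76836 and 90294 in these treated libraries against a treated median of 28390, and their part was not tested.

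Treated and DMSO lineages were compared over all time points with 1 value per lineage adjusted for time point. No member was called (limma, adjusted p under 0.05), as for 0% of all genes, and none of the 17 had an unadjusted p under 0.05, beside 13.5% of all genes. The differences, treated minus DMSO, were positive for 8 members and negative for 9, with a median of -0.01 on the log2 scale against -0.004 for all genes. CXCL8 had a difference of -0.87 ± 0.41 (SE), again a description. CSF1 differed by 0.49 ± 0.27 (SE, adjusted p = 0.437) and NFKBIE by -0.20 ± 0.11 (adjusted p = 0.453). Without R8, CSF1 and NFKBIE passed, at 0.96 (adjusted p = 0.0387) and -0.36 (adjusted p = 0.0455), as did VCAM1. Only R9 and R10 are then left in the DMSO arm, and the share of all genes called without R8 was not computed. Without the 4 late DMSO libraries the CXCL8 difference was 0.19 ± 0.41 (SE).

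At single time points no member was called at 1, 4, 5, 6, 8, 9 or 10 (limma), where 0% of all genes were called at 1, 4, 5, 6 and 8, 1.33% at 9 and 0.0618% at 10. At time point 1 no member had an unadjusted p under 0.05, beside 2.58% of all genes, and CSF1 (0.95 ± 0.53, SE), NFKB1 (0.23 ± 0.14) and RELA (-0.18 ± 0.11) had the smallest p-values (adjusted p = 1.00 for each). At time points 4, 5 and 6 most members lay higher in the treated arm, 11, 15 and 13 of 17, with medians of 0.14, 0.23 and 0.21 against medians near 0 for all genes. These medians depended on single DMSO lineages. They were 0.29, 0.42 and 0.42 without R8, -0.16, 0.10 and 0.07 without R9, and 0.14, 0.11 and 0.07 without R10. At time point 4 the DMSO arm held only R8 and R9, so leaving out either leaves 1 library. At each of these time points 1 member had an unadjusted p under 0.05, beside 3.09%, 1.35% and 3.90% of all genes. These were IL32 at time point 4 (1.73 ± 0.78, SE), CSF1 at time point 5 (1.27 ± 0.52) and ICAM1 at time point 6 (1.67 ± 0.83), all with an adjusted p of 1.00. The ICAM1 values behind the last were 40.2 to 218 in 6 treated libraries against 150, 24.0 and 11.7 in R8, R9 and R10, so R8 lay within the treated range.

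From time point 8 the signs turned, with 13, 12 and 11 of 17 members, CXCL8 and IL32 among the 17, lower in the treated arm at 8, 9 and 10. The medians were -0.14, -0.22 and -0.10 against 0.02, -0.001 and -0.02 for all genes. Without the 6 late libraries the member medians were -0.04, -0.09 and 0.06, with R8 as the only DMSO library at 9 and 10. The turn thus rested largely on those libraries. The CXCL8 differences, as a description, were -3.29 ± 0.99 (SE) at time point 8 and -3.57 ± 1.15 at time point 9, and -1.41 and -1.15 without the 4 late DMSO libraries. At time point 9 ICAM1 differed by -2.93 ± 0.96 (SE, adjusted p = 0.0997), CD83 by -1.58 ± 0.58 (adjusted p = 0.149) and RELA by 0.35 ± 0.13 (adjusted p = 0.14). NFKB2 differed by -0.46 ± 0.22 (SE, adjusted p = 0.478) at time point 8. At time point 10 ICAM1 differed by -3.13 ± 1.07 (SE, adjusted p = 0.215) and CD83 by -1.27 ± 0.64 (adjusted p = 0.432). At an unadjusted p under 0.05 there were 2 members at time point 8 and 5 at 9, CXCL8 included both times, and 1 at 10, beside 10.1%, 14.9% and 11.8% of all genes. Without R8, ICAM1 (-3.68, adjusted p = 0.0113) and RELA (0.44, adjusted p = 0.0398) passed at 9, where R9 and R10 are then the DMSO arm. The share of all genes called there was not computed. At time point 10 leaving out R8 leaves R10 alone, and the ICAM1 difference was -4.79. Without the 4 late DMSO libraries the ICAM1 difference at time point 9 was -1.43 ± 1.22 (SE), and without all 6 late libraries, which also leaves out R1 there, it was 0.01 ± 1.14. In both cases R8 is the only DMSO library of that time point.

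**Figure D5:**
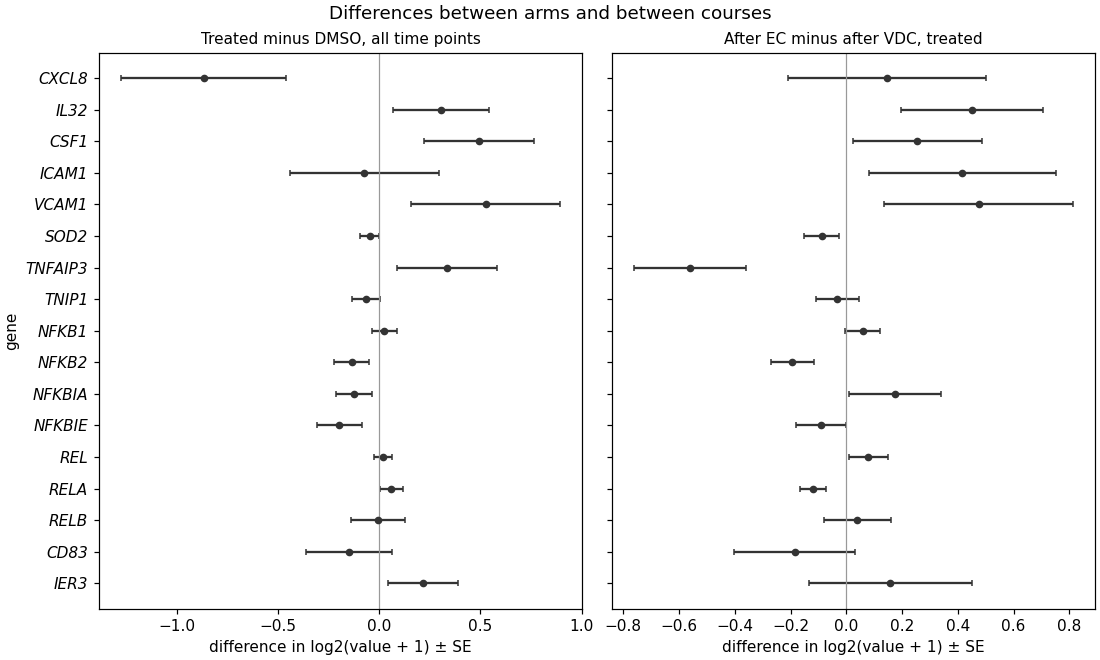
Differences in log2(value + 1) with their SE for 17 genes, treated minus DMSO over all time points (left, 7 against 3 lineages) and after EC minus after VDC within the treated lineages (right, 49 libraries). None passed the threshold; CXCL8 lies lowest on the left at -0.87 and TNFAIP3 lowest on the right at -0.56.

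The last course received was compared within the 49 treated libraries, with lineage as a block. No member was called (limma), as for 0% of all genes, and 3 had an unadjusted p under 0.05: TNFAIP3, RELA and NFKB2, beside 14.5% of all genes. TNFAIP3 had a difference, EC minus VDC, of -0.56 ± 0.20 (SE, adjusted p = 0.181), RELA had -0.12 ± 0.05 (adjusted p = 0.213) and NFKB2 -0.19 ± 0.08 (adjusted p = 0.229). In the 17 pairs of a VDC library and the EC library of the same cycle, TNFAIP3 was lower after EC in 6 of 7 lineages, with a mean of -0.46 ± 0.10 (SE, adjusted p = 0.0383), the 1 member called in that version, and the RELA difference was 0.0001. The lineage that differed for TNFAIP3 was R5, at 0.22. SOD2 was lower after EC in 7 of 7 lineages, by 0.03 to 0.21, without a call. ICAM1, IER3, IL32, CSF1 and NFKB1 were each higher after EC in 6 of 7 lineages, and CD83 was lower in 6, also without a call. In every pair the EC library was the later one, so course and time cannot be told apart there. The shares of all genes with such agreement, or called in the pairs, were not computed.

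DMSO lineages received neither course but share the alternation of time points, so the EC against VDC difference was also compared between the arms. No member was called (limma), as for 0% of all genes, and none had an unadjusted p under 0.05, beside 4.70% of all genes. TNFAIP3 differed by -0.67 ± 0.35 (SE), ICAM1 by 0.87 ± 0.64 and VCAM1 by 0.74 ± 0.56, each with an adjusted p of 0.914.

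Other genes of the pathway were counted in the same way, and each count stands beside 16.3% of all genes rising and 22.8% falling in treated lineages and 6.11% and 6.14% in DMSO lineages. Of 47 tested receptors and upstream signalling genes, 6 rose and 9 fell over time in treated lineages and 2 rose and 2 fell in DMSO lineages, with median slopes of -0.004 and 0.01. TNFRSF12A, the receptor of TWEAK, rose by 0.35 and TRAF5, an adaptor of TNF receptors, by 0.21 in treated lineages, and TLR5, the flagellin receptor, fell by 0.23. Of 19 other inhibitors and co-regulators, 6 rose and 3 fell in treated and 3 rose and none fell in DMSO lineages. BCL3, an atypical IkB protein, rose in both, by 0.09 and 0.13, NFKBIZ, an IkB protein that co-activates secondary targets, rose by 0.30 in treated lineages, and ZC3H12A, an RNase that degrades cytokine messages, by 0.16 in DMSO lineages.

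Of 34 other NF-kB target genes, 15 rose and 1 fell in treated lineages, against 16.3% and 22.8% of all genes, and 11 rose and 1 fell in DMSO lineages, against 6.11% and 6.14%, with median slopes of 0.07 and 0.10. TNC, an extracellular matrix protein, rose by 0.64 and 0.71, C3, the central complement protein, by 0.56 and HLA-B by 0.51 in treated lineages, and CXCL11, a CXCR3 ligand, by 0.65 in DMSO lineages. Of 26 other senescence-associated secreted genes, 18 rose and 2 fell in treated lineages and 6 rose and none fell in DMSO lineages. MMP1, an interstitial collagenase, rose by 0.61 and 0.84, and INHBA, a subunit of activin, by 0.49 in treated lineages. Among 10 tested receptors of the secreted members, 5 rose and 1 fell in treated lineages and 1 rose and none fell in DMSO lineages. ITGA4, a subunit of the VCAM1 receptor, rose by 0.40 and IL6R by 0.22 in treated lineages. None of these lists had a call in the comparison over all time points, in the slope difference or in the course comparisons.

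Several members share exonic bases with another gene in GENCODE release 29, among them ICAM1 with AC011511.2 and AC011511.5, IER3 with IER3-AS1, and SOD2 with WTAP. These partners lie on the opposite strand. The use of strand in the counting is not given in the sources used here, so reads of such partners cannot be told apart. REL shares the most, 5702 of its 13170 exon bases, with AC010733.2, and IL32 shares 129 with RNU1-125P. Both of these partners lie on the same strand, where strand would not separate the reads.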

How the data were processed

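Per the labels' protocols, STAR was used for alignment and counting, and the submitters' processing notes add featureCounts and name GRCh38 as the build, all with no version. The authors deposited a signal (counts after quantile normalization) in 73 columns: treated columns share 1 distribution with a highest value of 114345, DMSO and parental columns another with 114407. Depth is unknown, so no counting interval is given. The parental column, whose name differs from its library name, was assigned as the only one of that group.

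Tests used log2(value + 1) and the 14565 genes whose mean reached 10, in limma 3.58.1 (trend) under R 4.3.3, with Benjamini-Hochberg adjustment over all genes tested and a threshold of 0.05. Lineages are separate cultures and gave 1 value or slope each; single time points used a shared fit of 72 libraries without a lineage term. The EC against VDC comparison had lineage as a replicate block, since the same numbers mark the same culture. The p-values of lineage values, slopes and same-cycle pairs measure the spread between these cultures of 1 cell line. Those of single time points rest on the spread between libraries, with repeated libraries of a culture counted as separate. Those of the course comparisons with a lineage block rest on the spread between libraries within lineages. The functions were tested on simulated data.

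The 35 members, the gene lists and the comparisons were chosen with earlier results of these data known. Members at a mean of at least 10 are named with values, others with their range; full values are given for members called, for the 3 smallest p-values of a comparison without a call and for members far above their median in 1 library. Up to 3 genes a list are named, those called with the largest slopes; some genes chosen by this rule are not reported here. Promoters are from RefSeq (GRCh38.p14), exon lengths and overlaps from GENCODE release 29. Figures were drawn with matplotlib.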

Additional observations from a re-analysis of the deposited data

Results flagged for a closer look

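Among the 7 treated lineages, 3 of 34 sets of values examined (the time-adjusted level and the slope of each of the 17 tested genes) held a lineage far from the others; chance gives about 1 in 20. ICAM1 was lowest in R1, with a time-adjusted log2 value of 4.50 against 5.82 in the next lineage. CD83 was also lowest in R1, at 6.47 against 7.27. REL was lowest in R2, at 9.15 against 9.29.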

How the results depend on the processing

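Among the named members' differences under the alternatives, 864 kept their direction and side of the threshold, 54 lost their call, 8 gained one and 15 changed sign. Only 7 treated and 7 DMSO slopes, CXCL8 included, were called to begin with, and all 54 lost calls fell on these. The other named differences were not called, so many of the 864 only stayed uncalled, and this number is no measure of how stable the calls are. The cause was not tested, apart from fewer libraries or genes where an alternative leaves them out. The changed signs were these. Without the 4 late DMSO libraries, CXCL8 was 0.187 over all time points and 0.0325 in the slope difference, and the NFKB2 slope in DMSO lineages -0.0369. Without the 6 late libraries, an alternative added after seeing the data, CXCL8 was 0.219 and 0.0836, the NFKB2 slope again -0.0369, ICAM1 at time point 9 0.0135, and NFKB2 and CD83 at time point 10 0.0557 and 0.0434. Over time points 4 to 10 alone, also added after seeing the data, the treated slopes of ICAM1 and CSF1 were -0.0596 and -0.0559 and the DMSO slopes of NFKB1, TNIP1 and CSF1 -0.0169, -0.0106 and -0.0307. In pairs of the same cycle, RELA after EC against VDC was 0.0001.

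Counts of called members include CXCL8, tested only through late R9 libraries, and IL32, tested only through late DMSO libraries. They changed as follows. In treated slopes, 7 became 11 without the 2 late treated libraries, 12 without the 6 late libraries, 3 without time point 1 and 0 over time points 4 to 10. In DMSO slopes, 7 became 2 without the filter on low values, 0 without time point 1 and 3 over time points 4 to 10. After EC against VDC, 0 became 1 in pairs of the same cycle. Leaving out each lineage in turn gave 0 to 3 members over all time points, 0 to 1 at time point 8 and 0 to 3 at 9, each highest without R8, and 0 to 8 in DMSO slopes. The share of all genes called under each alternative was not computed, so these counts cannot be set beside it. Fitting EC against VDC with no replicate block left 0 members called. Other normalization (all columns together), a pseudocount of 10 and limma without trend moved no count of called members by over 1.5 times. The depth of the libraries is unknown, so differences in members near the tie value, such as CXCL8 in most libraries and IL32 in some early ones, are not resolved.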
